A study of Gallus gallus with 4 samples.

Results

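CTCF binding sites of chicken lymphoid DT40 cells were compared with those of erythroid HD3 cells that had not been induced to differentiate. The comparison took every peak of these 2 deposited lists on the numbered chromosomes and Z, 13510 peaks in DT40 and 8761 in HD3. These 22271 peaks were part of 27162 in the 3 peak lists of the series. Sites were mapped by chromatin immunoprecipitation and sequencing (ChIP-seq) with a custom rabbit antibody against the amino-terminal part of chicken CTCF. The input library of the series, unprecipitated chromatin, came from HD3, and whether it served as the control for the DT40 calls is not given in the sources used; its part in sites called in DT40 alone was not tested. There was 1 library for each line, so every difference below is a description of these libraries, with no replicate check and no p-value. Read counts are not part of these lists, and sequencing depth is therefore unknown. A site missing from a list was not called there, which does not show that it was unoccupied.

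HD3 cells are chicken erythroblasts, red cell precursors that the avian erythroblastosis virus has transformed; clone A6 of the line LSCC was used, without the inducer of differentiation. DT40 is a chicken B-lymphoid line, obtained as CRL-2111 from ATCC, and carried no treatment. Both lines were grown in the same serum-supplemented medium, to which β-mercaptoethanol was added for DT40. Each line stands for its lineage as 1 transformed clone or stock, so differences between lineages and between these lines cannot be told apart. Cell identity could not be checked against marker genes, since the lists hold positions and no expression.

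CTCF is a zinc finger protein that binds DNA at a long, conserved motif. It is best known as an insulator protein that blocks enhancers from acting across it, a role worked out in part at the chicken beta-globin locus. With the cohesin ring it also marks the anchors of chromatin loops, because cohesin extruding a loop is halted at bound CTCF. Many CTCF sites are held in common by different cell types, and others are bound in some lineages and not in others. The question here is how far the lymphoid and the erythroid line share their sites, how strongly each shared site ranks in each line, and how line-specific sites are arranged along the chromosomes.

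A peak was counted as called in the other line when the other list had a peak overlapping it by at least 1 bp. Of the HD3 peaks 75.5% were called in DT40 (6618 of 8761, exact 95% interval 74.6 to 76.4), and of the DT40 peaks 50.3% were called in HD3 (6793 of 13510, interval 49.4 to 51.1). Intervals cover counting error only and treat peaks as independent. HD3 peaks were longer, with a median of 1217 bp against 712 bp, and the positions of shared peaks were close. Where 1 HD3 peak met 1 DT40 peak (6449 sites), the midpoints lay a median of 39.0 bp apart, and the DT40 peak lay wholly inside the HD3 peak in 94.0% of cases. Only 54 of these pairs had midpoints more than 500 bp apart. A further 169 HD3 peaks each met several DT40 peaks, up to 5, whereas no merged site held more than 1 HD3 peak.

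Merging overlapping peaks gave 15478 sites. Of these, 6618 (42.8%, interval 42.0 to 43.5) were called in both lines and are termed shared. DT40 alone accounted for 6717 sites (43.4%, interval 42.6 to 44.2) and HD3 alone for 2143 (13.8%, interval 13.3 to 14.4). Few of the unshared peaks were near misses. The other line had a peak within 1 kb for 59 of the 2143 HD3-only peaks (2.75%) and for 246 of the 6717 DT40-only peaks (3.66%). Within 10 kb the shares were 23.0% and 22.7%, and the median distance to the nearest peak of the other line was 28.4 kb from HD3-only peaks and 32.5 kb from DT40-only peaks.

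Sharing was then compared at equal score rank. The score is the peak caller's own value for each peak. It was ranked within each list, rank 1 being the highest, because scores of different libraries cannot be compared by size. Among the 1000 highest-ranked peaks, 93.5% of HD3 peaks (interval 91.8 to 94.9) were called somewhere in the DT40 list, and 90.7% of DT40 peaks (interval 88.7 to 92.4) were called in the HD3 list. At ranks 4001 to 5000 these shares were 77.3% for HD3 peaks and 63.5% for DT40 peaks. At ranks 7001 to 8000 they were 62.7% and 41.8%. Beyond rank 2000, an HD3 peak was more often called in the other line than a DT40 peak of the same rank.

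The gap was smaller with lists of equal length. When DT40 was limited to its 8761 highest-ranked peaks, the same number as in HD3, the shares fell with rank over much the same range in both directions. At ranks 4001 to 5000 the share was then 62.9% for HD3 peaks (interval 59.8 to 65.9) and 63.5% for DT40 peaks (interval 60.4 to 66.5). At ranks 7001 to 8000 it was 40.5% (interval 37.4 to 43.6) and 41.8% (interval 38.7 to 44.9). Over the equal lists 62.3% of HD3 peaks and 63.4% of DT40 peaks were called in the other line. Overlaps are nearly all between 1 peak and 1 peak, so with equal lists both totals count nearly the same pairs (5460 HD3 and 5556 DT40 peaks) and must lie close. The closeness of the 2 directions is therefore fixed largely by the equal lengths and says nothing of the lines.

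**Figure D1:**
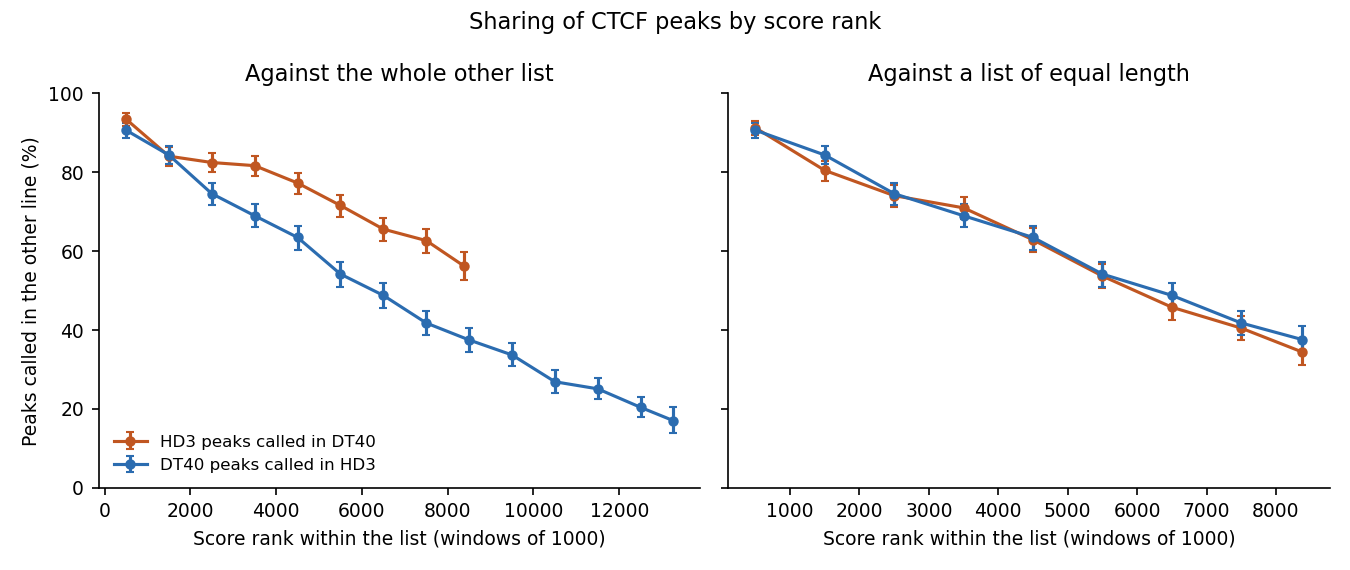
Share of CTCF peaks called in the other line, in percent, for windows of 1000 score ranks in non-induced HD3 (orange) and DT40 (blue), with exact 95% intervals for counting error. Left, against the whole other list, where the HD3 share lay above the DT40 share beyond rank 2000; right, with DT40 limited to its 8761 highest-ranked peaks, where HD3 went from 91.3% to 34.4% and DT40 from 90.7% to 37.6%.

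The highest ranks were shared as sites more often than as ranks. That order is fixed by construction, since the top of a list is part of the list, and only the sizes are described here. Of the 500 highest-ranked HD3 peaks, 94.8% were called somewhere in DT40, but 46.4% (232 peaks, interval 42.0 to 50.9) were among the 500 highest-ranked DT40 peaks. The share found at equal rank was 53.9% for the 1000 highest peaks of each list, 58.3% (interval 56.7 to 59.8) for the 4000 highest and 61.9% for the 8000 highest. Without chromosomes 2, 11 and 20, described below, the 4000 highest gave 62.2% in the HD3 direction.

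Peaks of high rank that the other line lacked differed between the lines in length and in chromosome. Of the 1000 highest-ranked DT40 peaks, 93 were not called in HD3, and 21 of these were longer than 3000 bp, against 2 of the 907 that were called. The 93 had a median length of 1487 bp, against 965 bp for the called ones, and 44 of them lay on chromosomes 2, 11 and 20. Of the 1000 highest-ranked HD3 peaks, 65 were not called in DT40, and their median length of 1268 bp was close to the 1314 bp of the called ones, and 6 of the 65 lay on chromosomes 2, 11 and 20. In the whole lists, these chromosomes held 2808 of the 6717 DT40-only sites and 172 of the 2143 HD3-only sites. The division by chromosome was thus not particular to high ranks. Of all peaks, called or not, these chromosomes held 3959 of 13510 in DT40 and 1292 of 8761 in HD3. They held 258 of the 2000 highest-ranked HD3 peaks, so 6 of 65 was not above their share in HD3. Their share of all 1000 highest-ranked peaks was not counted in either list. The part of peak length and of these chromosomes in the calls was not tested. The highest-ranked HD3 peak with no DT40 peak within 10 kb had rank 61 and lay at 8824366 to 8825693 of chromosome 13. Those of ranks 69 and 96 lay at 6155660 to 6157092 of chromosome 12 and at 26796494 to 26797729 of chromosome 8. Their nearest DT40 peaks were 15.3, 18.5 and 25.0 kb away. The highest-ranked DT40 peaks of this kind had ranks 2, 3 and 4, tied with 1 other peak at the list's top score. A pair of them nearly touch, at 14291893 to 14297809 and 14297908 to 14302174 of chromosome 14, and the other lay at 2816328 to 2822015 of chromosome 20. All coordinates are of build galGal4 and counted from 1. Gene models of that build were not used here, so sites carry no gene names.

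Sites called in both lines were ranked again among themselves, in percent, over the same 6618 sites in each line, with 0 for the highest score. A site with several DT40 peaks took the highest of their scores. A site's rank in HD3 and in DT40 differed by a median of 14.7 percentage points, and by more than 50 points at 493 sites (7.45%). The Spearman rank correlation between the lines over these sites was 0.582. Of the highest 10% in HD3, 53.3% were also in the highest 10% in DT40 (352 of 661 sites), where unrelated ranks would give about 10%. Of the highest 50%, 71.5% were in common, where unrelated ranks would give about 50%.

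The sites whose ranks differed most show this spread at its extremes. On chromosome 2 at 22632658 to 22633979, a site stood at 2.33% in HD3 (score 578) and at 98.1% in DT40 (score 54.0). The next 4 that ranked far higher in HD3 lay at 14334773 to 14336470 of chromosome 9, at 2154589 to 2155953 of chromosome 18, and at 6691055 to 6692367 and 4078219 to 4079397 of chromosome 13. In the other direction, a site on chromosome 14 at 13661726 to 13663015 stood at 6.92% in DT40 (score 585) and at 99.95% in HD3 (score 50.1, just above the lowest score of that list). It was followed by sites at 137633987 to 137636344 of chromosome 2, 139254352 to 139259907 of chromosome 1, 9535838 to 9536993 of chromosome 20 and 138335333 to 138336490 of chromosome 2. Of these 5 that ranked higher in DT40, 3 lay on chromosomes 2 and 20, which held 760 and 186 of the 6618 shared sites. The most extreme site of the other direction also lay on chromosome 2. Sites of both directions scored near the lowest listed score, 50.0, in the line that ranked them lower. Those scores were 54.0 to 61.7 in DT40 and 50.1 to 56.7 in HD3.

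Chromosomes 2, 11 and 20, pooled after their values were seen, differed from the others in sharing and in rank. They held 3959 DT40 peaks against 1292 in HD3, a ratio of 3.06, and elsewhere the ratio was 1.28. Of their HD3 peaks 86.7% were called in DT40, against 73.6% elsewhere, while of their DT40 peaks 29.1% were called in HD3, against 59.1% elsewhere. Sites called in HD3 alone numbered 0.943 per Mb on these chromosomes and 2.41 per Mb elsewhere, and sites called in DT40 alone 15.4 and 4.78 per Mb. Density of shared sites was 6.14 and 6.72 per Mb. Single chromosomes did not all divide this way: in the HD3 direction chromosome 17 (85.7%) lay above chromosome 2 (84.9%). The small chromosome 16, with 8 HD3 and 47 DT40 peaks, had the higher ratio of 5.88, with 10.6% of its DT40 peaks called in HD3, 62.5% of its HD3 peaks called in DT40, and 5 of 5 shared sites ranked higher in DT40.

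Most shared sites on these chromosomes ranked higher in DT40 than in HD3. The first 25 Mb of chromosome 2, described at the end, went the other way, with 44 of 135 shared sites higher in DT40. The rank difference, HD3 minus DT40 in percentage points and positive where a site ranked higher in DT40, had a median of 13.9 on chromosome 2, 21.5 on chromosome 11 and 19.6 on chromosome 20. Together it was 16.5 (874 of 1120 sites positive). On 25 other chromosomes with at least 30 shared sites it lay between -9.61 (chromosome 27) and 11.5 (chromosome Z), and it was negative on 22 of them. Ranks within a fixed set balance, so a rise on some chromosomes lowers the rest. The median on chromosomes 2, 11 and 20 was between 16.3 and 17.6 under 6 other settings.

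**Figure D2:**
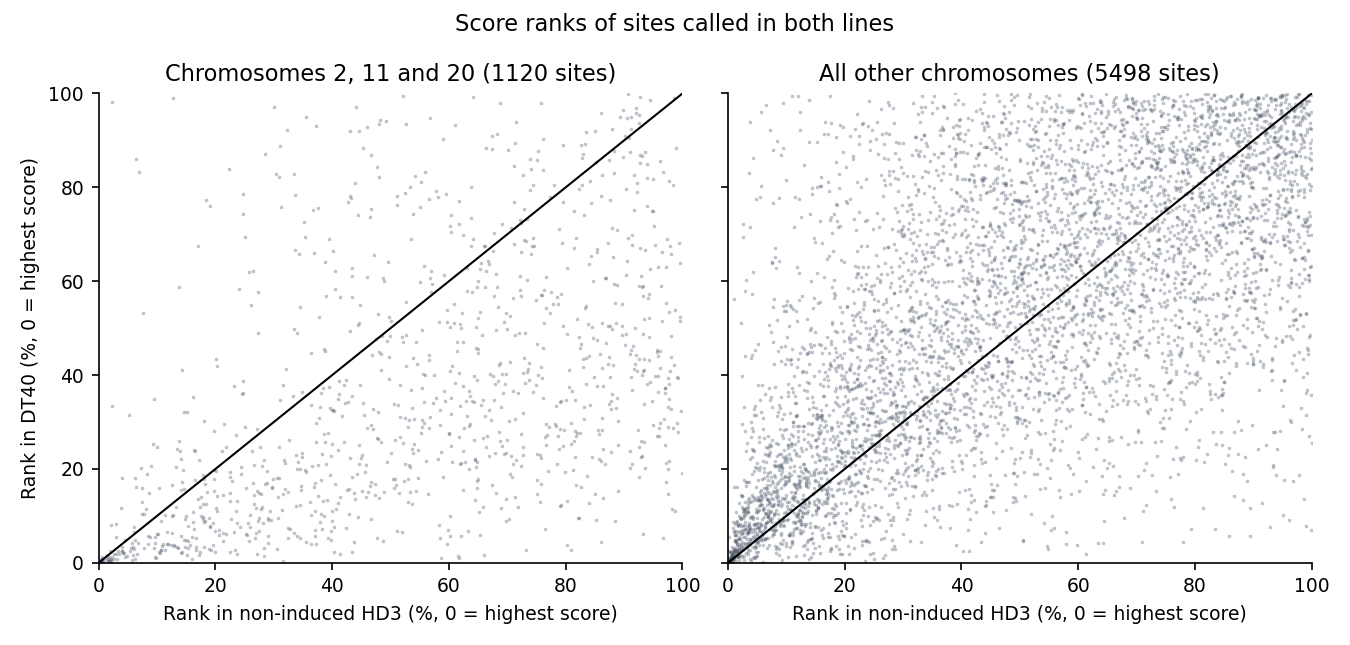
Score rank of each site called in both lines, in percent of the 6618 shared sites (0 is the highest score), in non-induced HD3 (horizontal) and DT40 (vertical); the line marks equal rank. On chromosomes 2, 11 and 20 (left, 1120 sites) 874 sites ranked higher in DT40 and lie below the line, and on all other chromosomes (right, 5498 sites) 2320 did.

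The difference in sharing between these chromosomes and the rest was widest among low-ranked HD3 peaks. At HD3 ranks 1 to 2000, 93.0% of HD3 peaks on chromosomes 2, 11 and 20 were called in DT40 (interval 89.2 to 95.8), against 88.2% elsewhere (86.6 to 89.7). At ranks 4001 to 6000 the shares were 89.4% (85.5 to 92.6) and 71.7% (69.5 to 73.8). At ranks 6001 to 8761 they were 80.6% (76.5 to 84.3) and 58.6% (56.6 to 60.6). Library, depth and any difference in chromosome copy number between the lines cannot be told apart from cell type in these values.

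**Figure D3:**
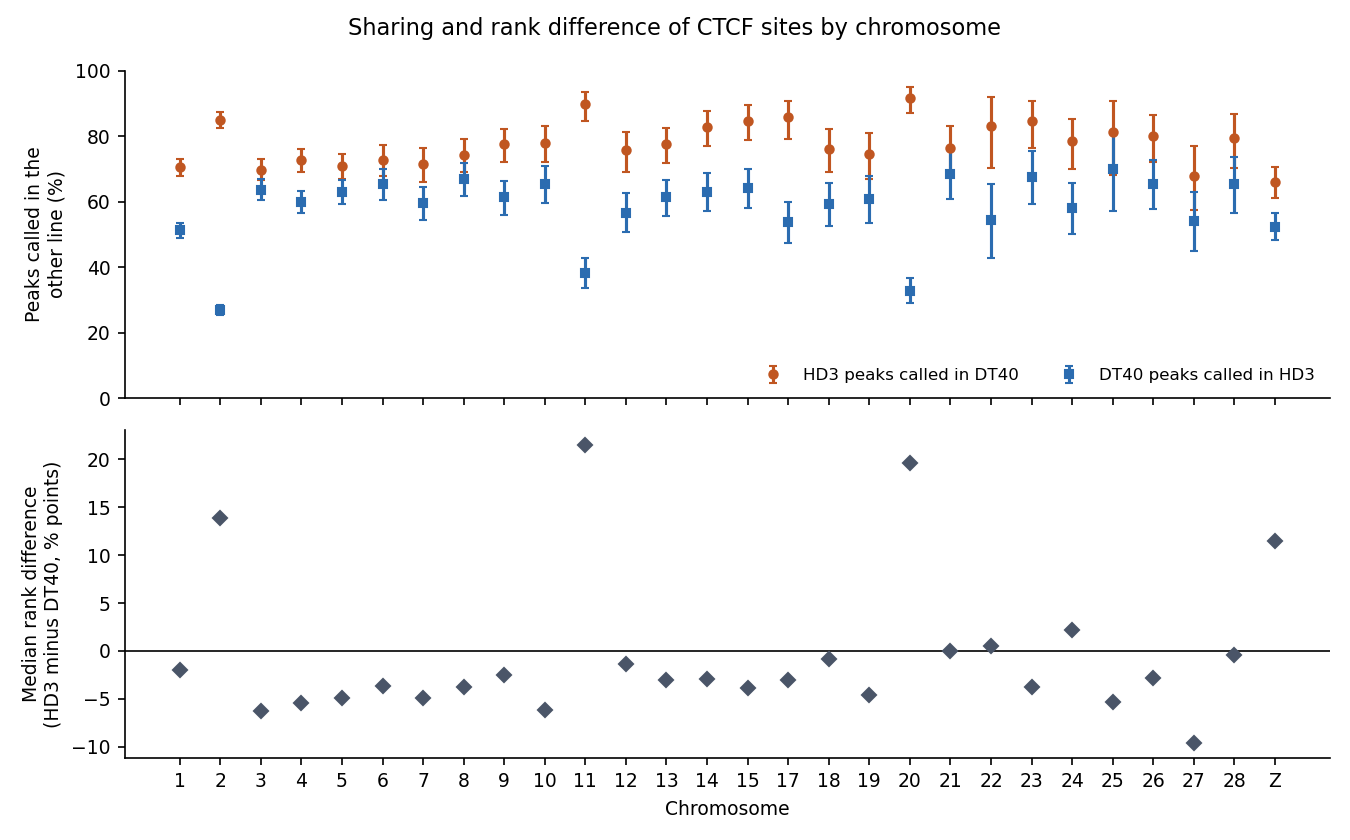
Top, share of HD3 peaks called in DT40 (orange) and of DT40 peaks called in HD3 (blue) for each chromosome, in percent, with exact 95% intervals for counting error. Bottom, median rank difference of shared sites in percentage points, positive where sites ranked higher in DT40; chromosomes 2, 11, 20 and Z stand above the others, and chromosome 16, with 5 shared sites, is not drawn.

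Sites called in 1 line lay next to each other more often than their overall share. Ordering all 15478 sites along the chromosomes, the site after a DT40-only site was again DT40-only in 57.2% of cases (interval 56.1 to 58.4), and DT40-only sites made up 43.4% of all sites. After an HD3-only site the next was HD3-only in 27.7% (interval 25.8 to 29.6), against 13.8% of all sites. After a shared site the next was shared in 50.4% (interval 49.2 to 51.6), against 42.8% of all sites. Without chromosomes 2, 11 and 20, the values were 44.6% against 34.4% for DT40-only, 28.7% against 17.3% for HD3-only and 53.1% against 48.3% for shared sites.

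DT40-only sites formed 2882 runs of consecutive sites with no HD3 call, and 251 of these runs held at least 5 sites. These runs took in 39.9% of all DT40-only sites (2682 of 6717, interval 38.8 to 41.1). The share was 22.8% without chromosomes 2, 11 and 20. Runs of 20 or more numbered 27, with 928 sites, of which 19 runs lay on chromosome 2 and 2 on chromosome 20. Among single DT40-only sites, 15.9% lay on chromosomes 2, 11 and 20, and among those in runs of 20 or more, 75.5% did. These chromosomes held 2808 of all 6717 DT40-only sites. The 2808 stood beside 1120 shared and 172 HD3-only sites, while DT40-only sites made up 34.4% of sites elsewhere. The part of this higher share in the long runs was not tested. The median DT40 rank was 68.7% of the list for single DT40-only sites, 61.1% for those in runs of 5 to 9, 61.3% in runs of 10 to 19 and 69.4% in runs of 20 or more. Sites in the upper 50% of the DT40 list made up 25.1%, 37.0%, 38.6% and 28.7% in the same order. Peaks in the longest runs had a median length of 728 bp, against 636 bp for single sites.

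The 5 longest runs of DT40-only sites differed in how tightly they were packed. On chromosome 1 at 139269101 to 139370904, 48 sites lay a median of 1.35 kb apart and covered 44.4% of the run. Between 137750538 and 138014784 of chromosome 2, 50 sites lay 4.20 kb apart. Between 81598101 and 82362987 of chromosome Z, 62 sites lay 5.33 kb apart and reached the last peak of the chromosome in either list. The run with most sites, 63 on chromosome 2 at 145917797 to 147466148, had a median step of 14.9 kb. A run of 61 sites on chromosome 2 at 56854114 to 59738195 was spread over 2884 kb with a step of 35.2 kb, and covered 1.58% of it. Sites of the run on chromosome 1 ranked high in DT40, with a median of 30.6% of the list, while the other 4 runs had medians between 64.0% and 80.3%.

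HD3-only sites were a small class, 13.8% of all sites, and in a random order many sites of a small class would stand alone. Of the 2143, 1170 (54.6%) had no HD3-only neighbour on either side in the order of sites, and 20.1% (431 sites, interval 18.4 to 21.9) lay in runs of at least 3. They still followed each other more often than their share, in 27.7% of cases as given above. The longest runs were on chromosome Z, with 25 sites at 26908839 to 27122895 and 17 sites at 27186664 to 27253967, a median of 2.81 and 3.31 kb apart. Between these bounds HD3 had 43 peaks and DT40 had 3, of which 1 site was shared. Next came runs of chromosome 1, with 12 sites from 70245015 to 71016737 and 7 sites from 81255661 to 82416529, and then 6 sites of chromosome 27 between 2301245 and 2514467. Chromosomes 2, 11 and 20 held 172 of the 2143 HD3-only sites and none of the HD3-only runs of 5 or more. Of these runs 14 had 5 to 9 sites, 2 had 10 to 19 and 1 had 25. The 172 sites stood among 1120 shared and 2808 DT40-only sites, while HD3-only sites made up 17.3% of sites elsewhere. The part of this lower share in the lack of runs was not tested. Without the region of Z, the longest run held 12 sites. With that region kept, merging peaks up to 1 kb apart left the longest HD3-only run at 25 sites, and merging up to 5 kb brought it to 11. The longest DT40-only run went from 63 to 56 sites with merging up to 5 kb.

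How much longer the DT40 runs were depended on the length of the lists. In the whole lists, 57.1% of DT40-only sites and 20.1% of HD3-only sites lay in runs of at least 3. With equal numbers of top-ranked peaks there were 3205 DT40-only and 3301 HD3-only sites, and the shares were 45.6% (interval 43.8 to 47.3) and 38.4% (interval 36.7 to 40.0). In a further setting, chromosomes 2, 11 and 20 were left out after the cut to equal numbers. The order turned for runs of at least 3, with 32.7% (interval 30.6 to 34.9) and 40.3% (interval 38.6 to 42.1). The lists were then no longer equal, with 1896 DT40-only and 3042 HD3-only sites. Runs form more readily in a larger class, and the part of class size in this turn was not tested. For runs of at least 5 the order did not turn under the same setting. It did not turn for runs of at least 10 either, with 11.3% of DT40-only and 3.48% of HD3-only sites.

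**Figure D4:**
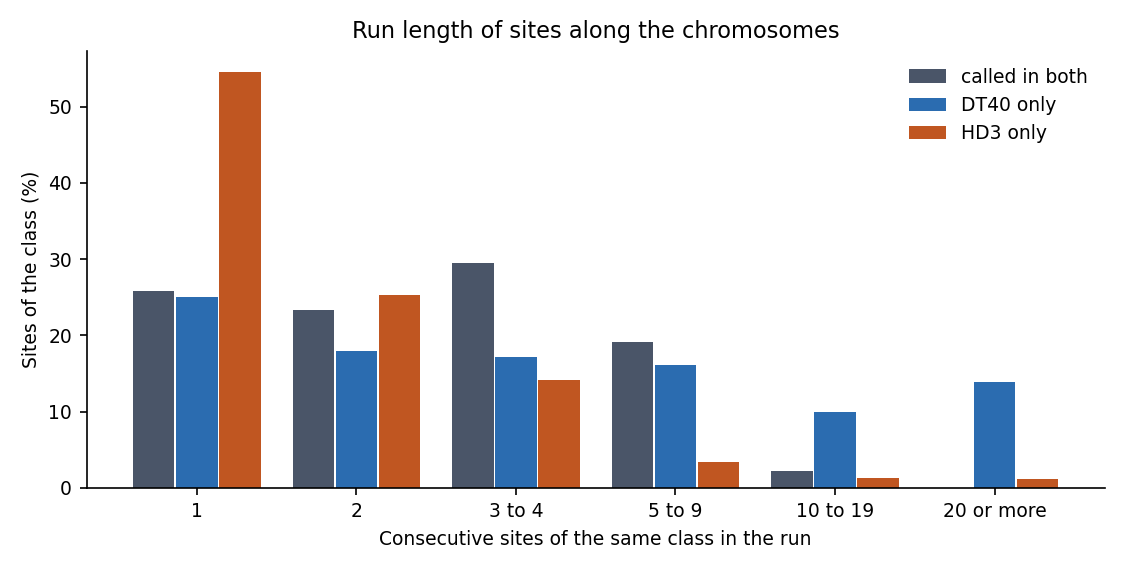
Share of shared (grey), DT40-only (blue) and HD3-only (orange) sites, in percent of each class, by the number of consecutive sites of the same class in the run they belong to, for the whole lists. Single sites made up 54.6% of HD3-only sites and 25.0% of DT40-only sites, and runs of 20 or more held 13.8% of DT40-only sites. The classes differ in size, HD3-only sites being 13.8% and DT40-only sites 43.4% of all sites, and the part of class size in these shares was not tested.

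Shared sites also came in runs uninterrupted by a site of 1 line, though shorter ones. The longest held 13 shared sites on chromosome 14 at 4032409 to 4393841, a median of 28.2 kb apart. Runs of 11 followed on chromosomes 13, 6, 17 and 5, with others of that length. Runs of 5 or more took in 21.4% of shared sites (1416 of 6618, interval 20.4 to 22.4). Chromosomes 2, 11 and 20, with 1120 of the 6618 shared sites, held none of the 14 runs of 10 or more. Their shared sites stood among 2808 DT40-only and 172 HD3-only sites, while shared sites made up 48.3% of sites elsewhere. The part of this lower share in the lack of long shared runs was not tested.

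Neighbouring shared sites were a median of 61.6 kb apart (interquartile range 24.8 to 155 kb, 6589 intervals), against 51.4 kb between neighbouring HD3 peaks and 27.7 kb between DT40 peaks. The median was 85.0 kb on chromosomes 1 to 5, 62.7 kb on chromosomes 6 to 10, 40.9 kb on chromosomes 11 to 28 and 66.2 kb on Z. On chromosomes 2, 11 and 20 it was 66.4 kb, close to the value for all. Spacing followed the number of peaks compared: with a score of at least 100 in both lists the median was 111 kb. Shared sites in the highest 25% of both rankings (1068 sites) lay a median of 286 kb apart.

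Of the intervals between shared sites, 50.5% held no site of either line alone. DT40-only sites without HD3-only sites lay in 28.5%, HD3-only sites without DT40-only sites in 9.76%, and both kinds in 11.2%. On chromosomes 2, 11 and 20, intervals with DT40-only sites alone made up 51.1% and intervals with HD3-only sites alone 3.04%. The density of DT40-only sites was 11.2 per Mb in the shortest 20% of intervals, up to 19.5 kb, and 4.94 per Mb in the widest 20%, from 196 kb. HD3-only sites went from 1.68 to 1.87 per Mb, with 3.07 per Mb in the middle group. These groups pool all chromosomes, which differed in spacing, as given above, and in DT40-only density. That density was 2.94 per Mb on chromosome 3, 14.2 on chromosome 2 and 28.4 on chromosome 20. The part of chromosome in the difference between the groups was not tested.

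**Figure D5:**
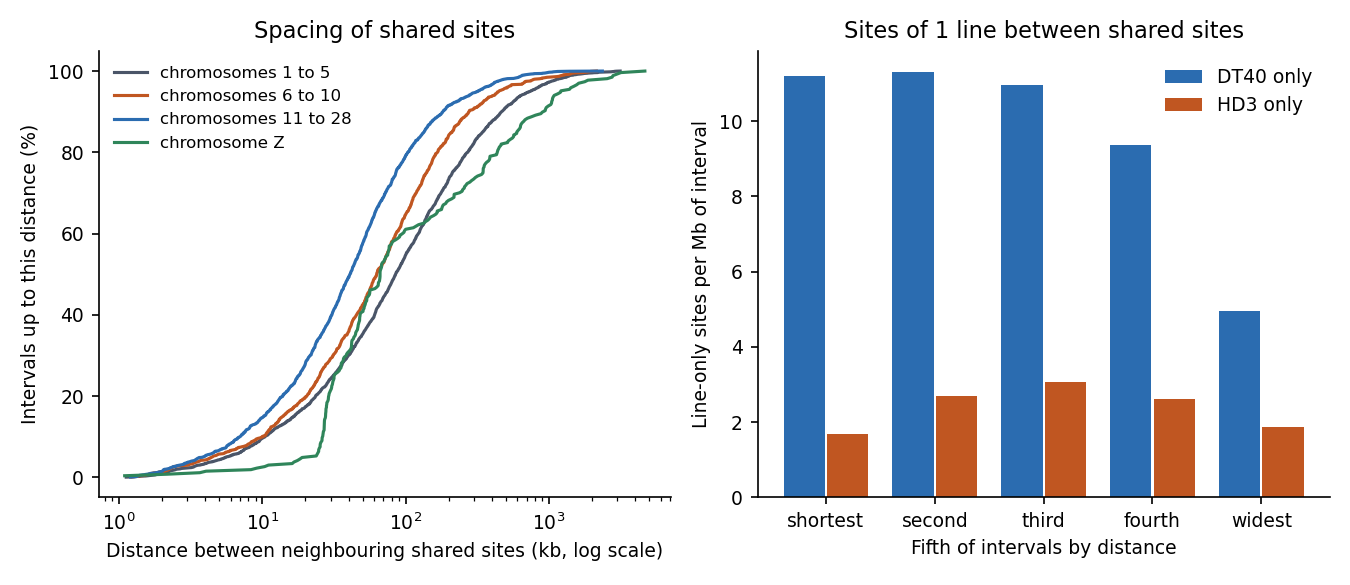
Left, cumulative share of intervals between neighbouring shared sites by distance in kb on a log scale, for chromosomes 1 to 5, 6 to 10, 11 to 28 and Z, with medians of 85.0, 62.7, 40.9 and 66.2 kb. Right, DT40-only (blue) and HD3-only (orange) sites per Mb of interval, for intervals of all chromosomes pooled, in 5 equal groups by distance. DT40-only density was 11.2 per Mb in the shortest and 4.94 per Mb in the widest group.

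Intervals of over 1 Mb without a shared site numbered 134 and made up 20.9% of the length between shared sites, with 23 of them on Z, where they made up 50.6%. Most were sparse in both lines, with a median of 2 DT40-only and 2 HD3-only sites. The widest, on chromosome Z between 2235453 and 6894280 (4660 kb), held 0 DT40-only and 1 HD3-only site. It was followed by Z between 66861841 and 70030765 (1 site of each line) and chromosome 1 between 158845927 and 161979512 (7 DT40-only and 2 HD3-only sites). The fourth was Z between 59611765 and 62588069 (1 and 2). The fifth was of another kind, on chromosome 2 between 56847921 and 59805663, and held the run of 61 DT40-only sites described above with 0 HD3-only sites. At least 10 DT40-only sites were found in 8 of the 134, and 5 of these 8 lay on chromosomes 2, 11 and 20. Those chromosomes held 24 of the 134 intervals and 2808 of the 6717 DT40-only sites.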

How the data were processed

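Peak lists of 1 CTCF ChIP-seq library of DT40 and 1 of non-induced HD3 were used; the induced HD3 list was counted for the total only. The submitters' processing notes name CASAVA 1.8.2, Bowtie2 and MACS with build galGal4; their parameters and the control for each call are not given in the sources used. Peaks were called per library. The deposited score of each peak, whose scale is not stated, was used for ranks within a list, with ties kept in genome order. Scores start at 50.0 in both lists, and peaks of lower score are not listed.

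Peaks sharing at least 1 bp were merged into sites. Shares carry exact Clopper-Pearson 95% intervals, which are likely too narrow because peaks cluster. Distances between shared sites are between midpoints, and Mb spans end at the last peak in either list. No test was run, and no model was fitted. Named sites were the 5 longest runs per line, the 5 widest intervals, the 5 sites per direction differing most in rank and 3 top peaks per line without a neighbour within 10 kb. Members, lists and alternatives were chosen with earlier results of these data known. Software was SciPy 1.17.1, pandas 2.3.3, NumPy 2.4.6 and matplotlib 3.10.9 under Python 3.11.15. Overlap by 1 bp, merging, runs and spacing were tested on simulated lists of well-separated sites with at most 1 peak per line. Crowded runs, sites with several DT40 peaks and the other overlap and merging rules were not simulated. Sequence, motifs and genes need galGal4 data and were not used here.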

Additional observations from a re-analysis of the deposited data

Results flagged for a closer look

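Peaks outside the numbered chromosomes and Z entered no comparison above. DT40 had 64 peaks on the linkage group LGE64, where HD3 had 1. HD3 had 6 peaks on chromosome W, where DT40 had 0. Both are signals in sequences the comparison left out.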

How the results depend on the processing

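No paired analysis was possible because each line has 1 library, so no replicate could be left out either. Depth is unknown. For HD3 peaks called in DT40 and DT40 peaks called in HD3, a reciprocal overlap of 50% gave 63.0% and 40.9%, midpoints within 500 bp 74.5% and 48.7%, and a score of at least 100 gave 71.9% and 47.7%. A DT40 peak shorter than 50% of an HD3 peak cannot meet the reciprocal rule, wherever it lies. Median lengths were 712 bp in DT40 and 1217 bp in HD3, and the part of length in the reciprocal values was not tested. Lists of equal length gave 62.3% and 63.4%, and leaving out chromosomes 2, 11 and 20 gave 73.6% and 59.1%. Both together gave 59.3% and 70.4%. In every setting with both, the chromosomes were left out after the cut to equal length. The lists were then no longer equal, HD3 being the longer, so the gap between the 2 directions follows in part from list length. A peak within 1 kb gave 52.1% for DT40 peaks. Sharing among the 4000 top ranks was 53.8% with reciprocal overlap and 62.2% without those chromosomes. It was 53.9% for 1000 ranks and 61.9% for 8000. The same top fraction (45.7%) of each list gave 71.0%. That setting compared 4000 HD3 peaks with 6168 DT40 peaks, and a longer DT40 list can only raise the share. DT40-only sites in runs of 5 or more were 35.7% with a score of at least 100, 30.0% with equal numbers, 22.8% without those chromosomes, 20.8% with both, and 35.1% and 28.8% with peaks up to 1 or 5 kb apart merged. HD3-only sites in runs of 3 or more were 38.4% with equal numbers, 40.3% with those chromosomes also left out, and 18.4% with merging up to 5 kb. Median spacing of shared sites was 111 kb with a score of at least 100, 72.0 kb with equal numbers, 71.96 kb with those chromosomes also left out, and 68.9 kb with merging up to 5 kb. Leaving out peaks over 3000 bp moved none of these beyond its interval. Settings with 2 changes, those for the rank difference and those leaving out parts of Z were chosen after the values were seen. Leaving out chromosomes 2, 11 and 20 was a planned setting, but they were picked with earlier results of these data known. The rank difference on chromosomes 2, 11 and 20 stayed within its interval in all 6 settings tried. Fewer sites under a stricter score or shorter list follow from construction. So do a lower share under reciprocal overlap and a higher share against a longer list. What moved the other values was not tested.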

Other observations

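The bounds in this part were chosen after the values were seen. The 3 parts of chromosome 2 differed. In its first 25 Mb, 69.2% of 195 HD3 peaks were called in DT40 (interval 62.2 to 75.6), DT40-only sites numbered 3.08 per Mb, and shared sites had a median rank difference of -5.68, ranking lower in DT40. From 25 to 136 Mb, 89.3% of 626 HD3 peaks were called (interval 86.6 to 91.6), DT40-only sites numbered 11.4 per Mb, and the median rank difference was 18.6. Beyond 136 Mb there were 74 HD3 peaks and 838 DT40 peaks, of which 8.00% were called in HD3, with 60.3 DT40-only sites per Mb and a median rank difference of 32.1. That last part, 12.8 Mb long, held 15 of the 27 runs of 20 or more DT40-only sites. HD3 peaks numbered 7.80 per Mb in the first part and 5.64 and 5.78 per Mb in the others.

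Chromosome Z was also in parts. Beyond 73 Mb, 131 of 136 HD3 peaks were called in DT40. The shared sites stood at a median of 10.9% in the DT40 ranking and 40.9% in the HD3 ranking, with 125 of 131 higher in DT40. Of these 131 sites, 28 held several DT40 peaks and took the highest score among them, against 169 of all 6618 shared sites. The part of this in their DT40 ranks was not tested. Spacing of the 131 sites fell in a narrow range: 70.8% of 130 intervals measured 20 to 60 kb, against 27.5% of all other intervals of the comparison. On the rest of Z the median rank difference was -0.28, so the positive median of the whole chromosome came with its far end. Outside that far end, 50.7% of 270 HD3 peaks were called in DT40, and 59.9% of 227 (interval 53.2 to 66.3) without the crowded HD3 region near 27 Mb. The end of the chicken Z long arm is known for a large block of tandemly repeated genes; whether these sites lie in it was not examined.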
